A study of Gallus gallus with 6 samples.

Results

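The MCM helicase and origin licensing genes described here are MCM2, MCM3, MCM4, MCM5, MCM6, MCM10, ORC1, CDC6, CDT1 and CDC45, taken by gene symbol from the deposited tables. All 10 were found, once each, among 24356 genes, and all 10 passed the filter on low counts that left 12583 genes for testing. Every one of them had a lower mean level in explants given GSK-J4 than in explants given the vehicle, and 8 of the 10 passed the test.

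RNA sequencing was done on chicken ocular lens explants kept in culture after a procedure that models cataract surgery. Treated explants received GSK-J4 daily from day 1 until day 3 after injury. It enters cells and blocks KDM6A and KDM6B, enzymes that take methyl groups off histone H3. The control explants received the solvent DMSO on the same days, and each group had 3 libraries. Both groups shared the injury and the medium with 10% fetal bovine serum, at 37 degrees Celsius and 5% CO2. Dose, strain and age are not stated in the labels, nor whether separate animals gave the libraries within a group, so p-values measure the spread between these libraries, which may in part be technical.

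A cell copies its DNA once per division because replication origins are prepared and used in separate steps. In the gap phase before DNA synthesis, the origin recognition complex (ORC) marks the origin, and CDC6 and CDT1 load the ring of MCM2 to MCM7 onto the DNA, a state called licensing. At the start of DNA synthesis the kinases CDC7 and CDK2 turn loaded rings into working helicases, which need CDC45 and the GINS complex, and MCM10 helps the helicase to start. Many of these genes are known targets of E2F transcription factors, which the RB protein holds back in resting cells. In the lens, dividing cells lie in the epithelium at the front, and fibre cells no longer divide.

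Library totals were 14862268 to 22541756 counts with GSK-J4 and 15456888 to 17308741 with DMSO. The 10 genes together had 1533 to 2207 counts per library with GSK-J4 and 3725 to 4795 with DMSO. The tissue label was borne out by the lens fibre markers, of which 17 were in the table and all 17 had counts, with a summed 151500 to 193000 CPM (counts scaled to library size) with GSK-J4 and 131500 to 160500 CPM with DMSO, and edgeR called 1 of them higher and 0 lower. The 11 lens epithelium markers in the table summed to 75290 to 87470 CPM with GSK-J4 and 64330 to 78110 CPM with DMSO, with 1 called lower and 1 higher. Summed markers of other cell types were low: 12.98 to 21.5 CPM with GSK-J4 and 8.13 to 35.4 CPM with DMSO for 10 macrophage genes, 22.8 to 33.1 and 18.9 to 31.4 CPM for 6 endothelial genes, and 4.62 to 7.01 and 5.42 to 7.65 CPM for 12 genes of the iris, ciliary body and retina. For 8 red cell genes, of which 5 were at 0, the sums were 9.32 to 13.8 CPM with GSK-J4 and 13.1 to 17.04 CPM with DMSO. GSK-J4 replicate 3 stood apart in genes of the female-specific chromosome W, which summed to 15.6 CPM there against 349.5 and 763 CPM in GSK-J4 replicates 1 and 2 and 390.4 to 938 CPM with DMSO. None of the 10 genes lies on a sex chromosome in the deposited table. DMSO replicate 3 had the highest CPM of all 6 libraries for each of the 10 genes, and results are therefore also given without these libraries where the call changes.

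The comparison asks which replication genes of the injured lens differ after GSK-J4. The 10 genes and the lists described below were chosen with earlier results of these data known. Their shares, set against those of all tested genes, may therefore partly reflect that choice. In edgeR's quasi-likelihood test with Benjamini-Hochberg adjustment over 12583 genes, 8 of the 10 genes passed an adjusted p of 0.05 as lower and 0 as higher, where 3.99% of all tested genes were called lower and 1.05% higher. A call with a fall of at least 2-fold was made for 5 of the 10, MCM2, MCM3, MCM5, MCM6 and ORC1, and for 2.86% of all tested genes. At an unadjusted p below 0.05, 10 of the 10 were lower and 0 higher, against 11% of all tested genes lower. DESeq2 called 9 lower and 0 higher, and 3.78% of all its genes lower. Its genes are the 17951 with any count, without the filter on low counts, so this share and the edgeR share have unlike bases. The median log2 fold change of the 10 genes (GSK-J4 minus DMSO) was -1.10, against 0.01 over all tested genes. The CPM ranges of the groups did not overlap for 10 of the 10, as for 13.5% of all tested genes in the same direction. In bulk RNA, fewer dividing cells and less RNA per dividing cell cannot be told apart. Removing GSK-J4 replicate 2 or 3 left 5 of the 10 called lower, and removing GSK-J4 replicate 1 or DMSO replicate 3 left 6. In that order, 1.58%, 1.83%, 3.06% and 2.32% of all tested genes were then called lower. The 5 genes called with a fall of at least 2-fold were also called in each of the 18 alternative analyses.

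**Figure D1:**
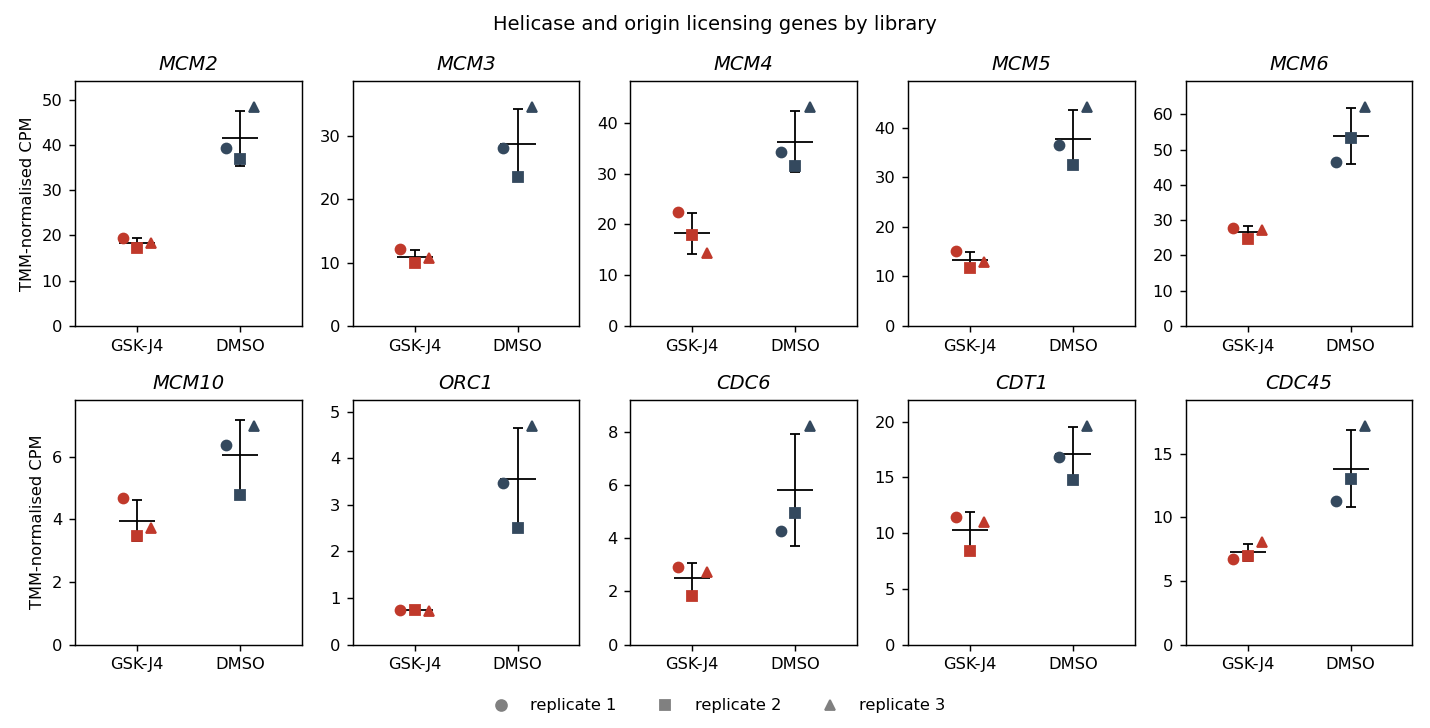
TMM-normalised CPM of the 10 genes in each library (y axis, linear from 0), GSK-J4 at left and DMSO at right. Points are libraries with replicates by shape, and the bar and whiskers are the mean and SD of 3 libraries. No gene's groups overlap, DMSO replicate 3 is the highest library in all 10 panels, and the MCM10 groups are the closest, at a highest GSK-J4 value of 4.69 and a lowest DMSO value of 4.79 CPM.

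MCM2 to MCM6 encode subunits of the helicase ring, which unwinds DNA ahead of the polymerases. No gene of the deposited table was found under the symbol MCM7, so that subunit of the ring was not measured. MCM5 (ENSGALG00000012546, chromosome 1 at 52093781 to 52114911 in the deposited table, with no genome build stated) had 15.1, 11.7 and 12.9 CPM with GSK-J4 and 36.5, 32.5 and 44.1 CPM with DMSO. The lowest DMSO library was 2.16 times the highest GSK-J4 library. Its level with GSK-J4 was 35.1% of that with DMSO, a log2 fold change of -1.51 (SE 0.16, 95% interval -1.87 to -1.15, edgeR adjusted p = 0.000445), the largest fall of the 5 ring genes. Part of its span overlaps HMOX1, the heme oxygenase gene, on the same strand over 6126 bases. HMOX1 averaged 3.39 ± 1.54 CPM with GSK-J4 and 7.96 ± 1.496 CPM with DMSO (SD, n = 3 each) and was not called (edgeR adjusted p = 0.0653), and how reads in the shared stretch were counted was not tested.

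MCM3 (ENSGALG00000016676, chromosome 3 at 107541369 to 107553023) had 12.1, 9.99 and 10.7 CPM with GSK-J4 and 28.0, 23.5 and 34.5 CPM with DMSO. Its groups did not overlap, with a ratio of 1.93 between the lowest DMSO and the highest GSK-J4 library. The log2 fold change was -1.39 (SE 0.17, edgeR adjusted p = 0.00108). MCM2 (ENSGALG00000006037, chromosome 12 at 10137401 to 10148820), the subunit that also binds histones H3 and H4, had 19.3, 17.3 and 18.4 CPM with GSK-J4 and 39.3, 36.8 and 48.3 CPM with DMSO. The GSK-J4 libraries lay close together for this gene, with a coefficient of variation of 5.61% against 14.6% with DMSO. It fell by 1.18 on the log2 scale (SE 0.14, edgeR adjusted p = 0.000886).

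MCM6 (ENSGALG00000012348, chromosome 7 at 30665923 to 30679252) had the most counts of the 10 genes, with 27.7, 24.8 and 27.3 CPM under GSK-J4 and 46.3, 53.2 and 62.0 CPM under DMSO. It fell by 1.02 on the log2 scale (SE 0.14, edgeR adjusted p = 0.00165), to 49.4% of the DMSO level. MCM4 (ENSGALG00000012915, chromosome 2 at 108001950 to 108013186) was the ring gene that varied most among treated explants, with 22.5, 17.9 and 14.4 CPM under GSK-J4 and 34.3, 31.5 and 43.1 CPM under DMSO. Its highest GSK-J4 value was 1.56 times its lowest, and the groups were apart by a ratio of 1.4. The log2 fold change was -0.99 (SE 0.18, edgeR adjusted p = 0.0116), and it missed the threshold after removal of GSK-J4 replicate 2 (adjusted p = 0.0803) or replicate 3 (0.0629).

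ORC1, CDC6 and CDT1 act at loading. ORC1 encodes the subunit of ORC that is known in mammals to change in amount over the cell cycle, and it is also the 1 gene of the 10 with very few reads after treatment. The ORC1 gene (ENSGALG00000010623, chromosome 8 at 24728882 to 24744108) had 12, 16 and 10 counts with GSK-J4 and 61, 43 and 78 counts with DMSO. In CPM these were 0.751, 0.747 and 0.717 with GSK-J4 and 3.47, 2.51 and 4.70 with DMSO, so every DMSO library was at least 3.34 times the highest treated library. It was 4.78-fold lower (log2 fold change -2.26, SE 0.37, 95% interval -3.07 to -1.44, edgeR adjusted p = 0.00558), the largest fall of the 10. On the log2(FPKM + 1) scale, which compresses low genes, the change was -0.86 (limma adjusted p = 0.0499).

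CDC6 (ENSGALG00000051645, chromosome 27 at 7211269 to 7215028), the ATPase that ORC recruits and that brings in the ring, had 2.94, 1.82 and 2.73 CPM with GSK-J4 and 4.27, 4.96 and 8.25 CPM with DMSO. All treated libraries were below all vehicle libraries, but DMSO replicate 3 was 1.93 times DMSO replicate 1. CDC6 missed the threshold, with a log2 fold change of -1.23 (SE 0.32, 95% interval -1.95 to -0.52, edgeR adjusted p = 0.057). It passed without DMSO replicate 1 (adjusted p = 0.0305) and in 5 other alternative analyses, DESeq2 among them (0.0144). CDT1 (ENSGALG00000013784, chromosome 11 at 18457285 to 18461372), which escorts the ring to the origin, had 11.5, 8.41 and 10.97 CPM with GSK-J4 and 16.8, 14.7 and 19.6 CPM with DMSO. Its level was 60.0% of that with DMSO (log2 fold change -0.74, SE 0.18, edgeR adjusted p = 0.0448). This was the weakest call among the 10 genes. It was lost in 8 of 18 alternative analyses, 5 of them among the 6 with a library removed, and the adjusted p reached 0.218 when GSK-J4 replicate 2 was removed.

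CDC45 and MCM10 act when licensed origins fire. CDC45 (ENSGALG00000001616, chromosome 15 at 967724 to 980147), part of the active helicase, had 6.76, 7.004 and 8.03 CPM with GSK-J4 and 11.3, 13.02 and 17.2 CPM with DMSO. It was 1.91-fold lower (log2 fold change -0.93, SE 0.20, edgeR adjusted p = 0.0243). It did not pass after removal of GSK-J4 replicate 1 (adjusted p = 0.0726), GSK-J4 replicate 2 (0.128), GSK-J4 replicate 3 (0.0700) or DMSO replicate 3 (0.0930). MCM10 (ENSGALG00000034198, chromosome 1 at 7248738 to 7263920), which despite its name is no member of the ring, had 4.69, 3.46 and 3.73 CPM with GSK-J4 and 6.37, 4.79 and 6.98 CPM with DMSO. The groups nearly touched, and the log2 fold change of -0.61 (SE 0.25, 95% interval -1.16 to -0.06) was not called in edgeR (adjusted p = 0.205) or in any of 18 alternative analyses. Another gene of the table, ENSGALG00000051529, overlaps MCM10 on the same strand over 14905 bases but took few reads, 0.164 ± 0.0834 CPM with GSK-J4 and 0.233 ± 0.0520 CPM with DMSO (SD, n = 3 each).

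The relatives MCM8, MCM9 and ORC2 to ORC6 were measured as well. MCM8 and MCM9, which act together in homologous recombination, had log2 fold changes of -0.23 (SE 0.22) and -0.41 (SE 0.27), and neither was called (edgeR adjusted p = 0.631 and 0.461). The other ORC subunit genes, ORC2, ORC3, ORC4, ORC5 and ORC6, had log2 fold changes between -0.60 and -0.19, and 0 of the 5 were called, with edgeR adjusted p of 0.235 to 0.616. DESeq2 called 0 as well, and ORC4 and ORC6 had an unadjusted p below 0.05. ORC4 (adjusted p = 0.0483) and ORC6 (0.0495) were each called in an analysis that left out DMSO replicate 1. ORC1 had 0.751, 0.747 and 0.717 CPM with GSK-J4, while ORC4 had 23.8, 27.5 and 22.7 CPM with GSK-J4 and 24.9, 35.7 and 36.0 CPM with DMSO. The ORC4 groups overlapped.

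These contrasts within families, chosen after the values were seen, were then computed library by library on the log2(FPKM + 0.1) scale, where FPKM corrects for gene length. Relative to the mean of ORC2 to ORC6, ORC1 stood at -3.58, -3.74 and -3.78 with GSK-J4 and at -1.76, -2.82 and -1.89 with DMSO. The difference between groups was -1.54, with no overlap and an exact two-sided permutation p of 0.10, the smallest that 3 against 3 libraries can give. Its size depends on the value added to FPKM, because ORC1 is low. The ORC1 change was -1.89 on log2(FPKM + 0.1) and -0.86 on log2(FPKM + 1). On the latter scale the largest fall among ORC2 to ORC6 was -0.42, for ORC5, so ORC1 still fell by more than each of them. The contrast itself was not computed on that scale. The mean of MCM2 to MCM6 lay 1.595, 1.197 and 1.55 above the mean of MCM8 and MCM9 with GSK-J4 and 2.36, 1.99 and 2.61 above it with DMSO. That difference was -0.87, again without overlap and with an exact permutation p of 0.10.

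**Figure D2:**
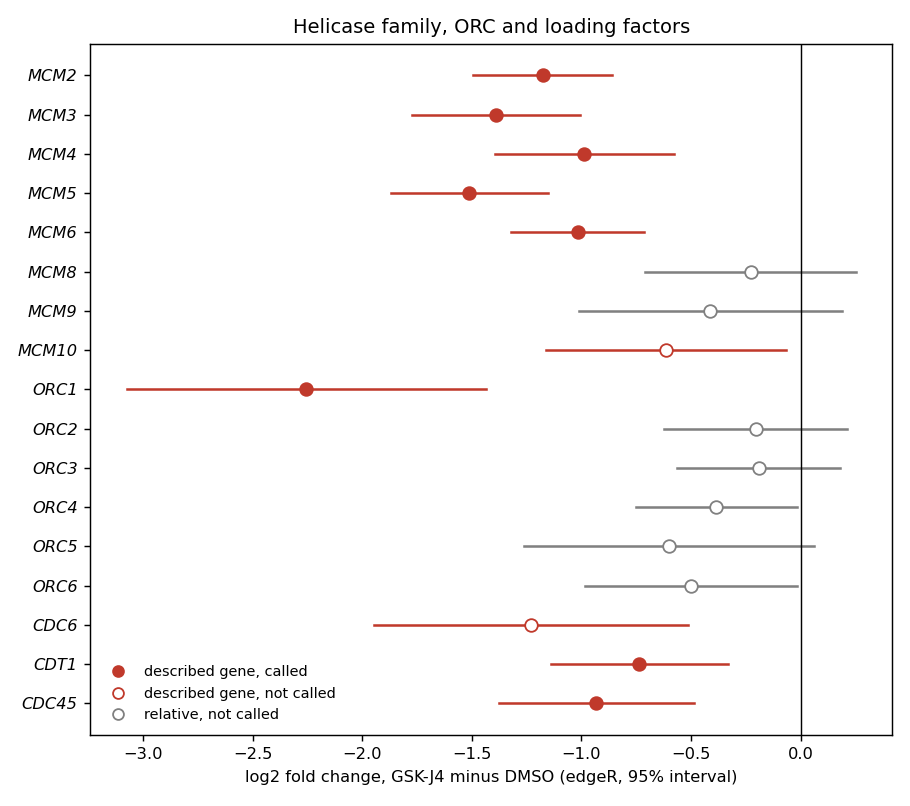
Log2 fold change (GSK-J4 minus DMSO, x axis) with its 95% interval in edgeR for the described genes (red) and for MCM8, MCM9 and ORC2 to ORC6 (grey). Filled points passed an adjusted p of 0.05. All points lie below 0, ORC1 is lowest at -2.26, and the grey points lie between -0.60 and -0.19.

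Levels were ordered per gene length, as FPKM. With GSK-J4, the order by mean FPKM was MCM4 (6.72 ± 1.56), MCM6 (6.68 ± 0.433), MCM2 (5.32 ± 0.334), MCM5 (5.27 ± 0.719), CDT1 (3.66 ± 0.598), MCM3 (3.45 ± 0.373), CDC45 (2.77 ± 0.239), CDC6 (1.34 ± 0.326), MCM10 (1.17 ± 0.202) and ORC1 (0.282 ± 0.00901; SD, n = 3 each). In this order the ranges of MCM4 and MCM6, MCM2 and MCM5, CDT1 and MCM3, and CDC6 and MCM10 overlapped, and the other neighbours were apart. With DMSO the order was MCM5 (14.9 ± 2.63), MCM6 (13.5 ± 2.21), MCM4 (13.3 ± 2.47), MCM2 (12.0 ± 1.99), MCM3 (9.01 ± 1.91), CDT1 (6.05 ± 0.984), CDC45 (5.27 ± 1.26), CDC6 (3.13 ± 1.21), MCM10 (1.77 ± 0.357) and ORC1 (1.36 ± 0.443; SD, n = 3 each). Here the ranges were apart only between MCM3 and CDT1 and between CDC6 and MCM10. MCM5 stood below MCM4, MCM6 and MCM2 by mean with GSK-J4 and above them with DMSO. However, its range overlapped those of MCM6, MCM4 and MCM2 with DMSO and those of MCM4 and MCM2 with GSK-J4. Relative to all tested genes, mean FPKM of MCM5 lay at the percentile 37.1 with GSK-J4 and 65.0 with DMSO, and that of ORC1 at 2.6 with GSK-J4 and 14 with DMSO.

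The protein ring holds its subunits in equal number, and the balance between the RNA levels of MCM2 to MCM6 was examined in each library. These RNA values do not measure the amounts of the protein subunits. MCM7 was not found by symbol and is missing from these values. The highest of the 5 ring genes had 2.16, 2.08 and 2.04 times the FPKM of the lowest with GSK-J4 and 1.64, 1.80 and 1.61 times with DMSO, and MCM3 was the lowest of the 5 in every library. MCM5 made up 19.6%, 18.2% and 19.7% of the summed FPKM of MCM2 to MCM6 with GSK-J4 and 24.6%, 23.1% and 23.8% with DMSO. MCM4 made up 27.0%, 25.7% and 20.4% with GSK-J4 and 21.3%, 20.7% and 21.4% with DMSO. The MCM5 shares did not overlap between the groups and the MCM4 shares did.

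For each of the 10 genes, log2(FPKM + 0.1) was then set against the mean of MCM2 to MCM6 in the same library. MCM5 stood at -0.02 ± 0.06 with GSK-J4 and 0.27 ± 0.04 with DMSO, and MCM3 at -0.61 ± 0.03 with GSK-J4 and -0.46 ± 0.09 with DMSO (SD, n = 3 each), so both were lower relative to the ring mean, by 0.29 and 0.15. CDT1, at -0.54 ± 0.17 with GSK-J4 and -1.02 ± 0.06 with DMSO, and MCM10, at -2.11 ± 0.08 with GSK-J4 and -2.74 ± 0.15 with DMSO (SD, n = 3 each), were higher relative to it, by 0.48 and 0.63. ORC1 was lower relative to the ring, at -3.82 ± 0.13 with GSK-J4 and -3.12 ± 0.23 with DMSO (SD, n = 3 each), but with a pseudocount of 1 in place of 0.1 the sign of this difference turned, to 0.20. For these 5 genes the groups did not overlap and the exact two-sided permutation p was 0.10, the smallest possible, so none could pass 0.05. The share of all genes without overlap on this relative scale was not computed. The ring mean includes MCM3 and MCM5 themselves, so the values of the ring genes are not independent. CDT1 also fell, and MCM10 was lower by mean without being called, but both changed by less than the ring mean. MCM2, MCM4, MCM6, CDC6 and CDC45 overlapped between the groups, with exact permutation p of 0.20 to 0.80.

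**Figure D3:**
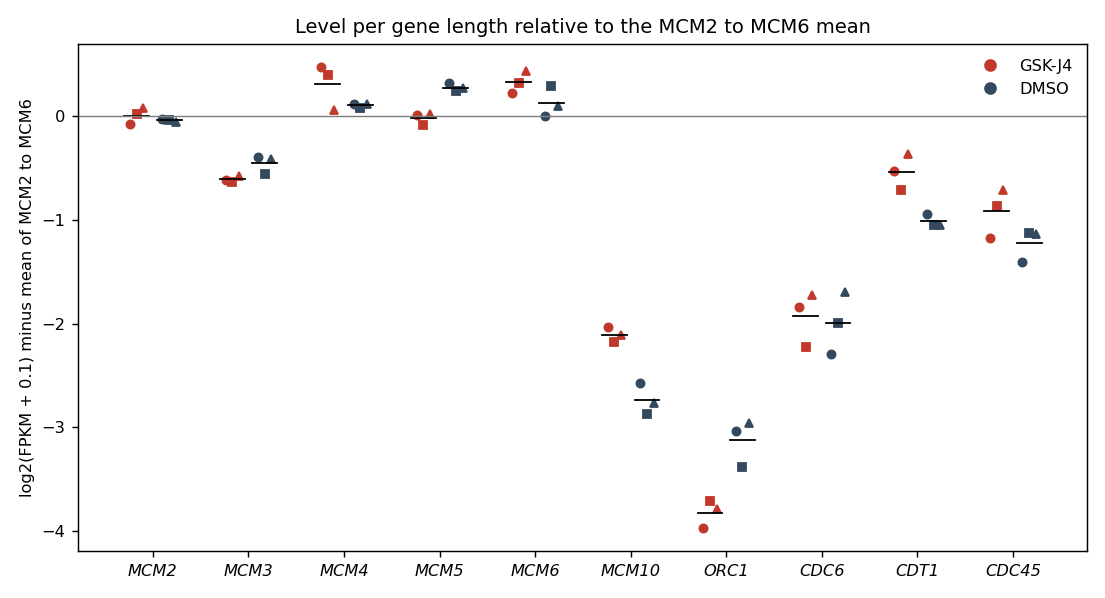
Level of each gene on the log2(FPKM + 0.1) scale minus the mean of MCM2 to MCM6 in the same library (y axis), GSK-J4 in red left of DMSO in dark blue. Points are libraries and lines are means of 3. MCM5, MCM3 and ORC1 lie lower with GSK-J4 and CDT1 and MCM10 higher, while the other 5 genes overlap between the groups.

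The libraries of a group also differed in concert. DMSO replicate 3 was the highest library for 10 of the 10 genes, and GSK-J4 replicate 1 was the highest treated library for all but CDC45. Centred on its own mean over the 6 libraries, log2 CPM averaged over the 10 genes was -0.43, -0.71 and -0.58 in GSK-J4 replicates 1, 2 and 3 and 0.48, 0.37 and 0.87 in DMSO replicates 1, 2 and 3. The spread within a group was smaller than the gap between the groups. Without DMSO replicate 3 the median log2 fold change of the 10 genes was -0.90, and over all analyses that left out a library it lay between -1.19 and -0.90.

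By the same measure, a pattern like the average of the 10 was sought among 8495 other genes with a symbol and at least 5 CPM. Genes of the replication, cell cycle and cell type lists used here were left out of this ranking. The closest were CSRP1, LMO7, CTGF, DUSP10 and ADAMTSL2. Their root mean square distances in centred log2 CPM over the 6 libraries were 0.063, 0.069, 0.077, 0.085 and 0.086. Among the 10 genes themselves, MCM2 was closest to the average at 0.049 and ORC1 farthest at 0.479. CSRP1, which encodes a LIM-domain protein, averaged 43.8 ± 5.38 CPM with GSK-J4 and 104 ± 21.8 CPM with DMSO (SD, n = 3 each).

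Of 30 tested partners in licensing and firing, 5 were lower and 0 higher in edgeR, or 16.7% against the 3.99% of all tested genes, with a median log2 fold change of -0.29. At an unadjusted p below 0.05, 13 were lower and 0 higher, against 11% of all tested genes lower. DESeq2 called 5 lower and 0 higher, against 3.78% of all its genes lower. CDC7, the catalytic subunit of the kinase that phosphorylates the loaded ring, had 2.82, 2.43 and 2.30 CPM with GSK-J4 and 5.80, 5.20 and 8.85 CPM with DMSO (log2 fold change -1.39, SE 0.28, adjusted p = 0.0163). DBF4, which encodes the activating subunit of that kinase, was at -0.06 (SE 0.21) and was not called. GINS1 (-1.49) and GINS2 (-1.39), subunits of the active helicase, fell, as did DTL (-1.17), whose protein marks CDT1 for destruction, and TICRR (-0.67), named after its value was seen, which helps to recruit CDC45. GMNN, which encodes the CDT1 inhibitor geminin, was not called at 0.12 (SE 0.41, edgeR adjusted p = 0.912), with 1.81, 5.42 and 6.24 CPM under GSK-J4 and 2.85, 4.61 and 4.94 CPM under DMSO. Its groups overlapped and its sign changed with the setting. The replication fork protein gene TIMELESS (0.01, SE 0.16) was not called either. Removing GSK-J4 replicate 1 left 2 partners called lower, against 3.06% of all tested genes. Removing GSK-J4 replicate 2, GSK-J4 replicate 3 or DMSO replicate 3 left 0, against 1.58%, 1.83% and 2.32% of all tested genes. With these removals, 9, 10 and 8 partners were lower in edgeR at an unadjusted p below 0.05. The share of all tested genes at that unadjusted level was not computed for these fits.

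Genes that act at the fork behind the helicase were lower for 12 of 35 tested, 34.3% against 3.99% of all tested genes, and 0 were higher, with a median of -0.45. The counts were 18 lower and 0 higher at an unadjusted p below 0.05, against 11% of all tested genes lower. DESeq2 called 14 lower and 0 higher, against 3.78% of all its genes lower. RRM2, a subunit of the enzyme that makes deoxynucleotides, had 26.1, 21.0 and 24.5 CPM with GSK-J4 and 57.4, 66.2 and 91.7 CPM with DMSO. PCNA, the sliding clamp of the polymerases, had 51.1, 53.9 and 49.2 CPM with GSK-J4 and 86.8, 90.1 and 126 CPM with DMSO. In both genes every treated library was below every vehicle library. The log2 fold changes were -1.59 for RRM2, -1.92 for UHRF1, a maintenance factor of DNA methylation, -1.55 for the primase subunit gene PRIM2 and -0.97 for PCNA, with edgeR adjusted p of 0.000571, 0.000774, 0.00175 and 0.00356. RFC4 (0.01, SE 0.12), a subunit of the loader of that clamp, and POLE3 (-0.01, SE 0.15), a subunit of a polymerase, were not called, and the sign of both changed with the setting. Removing GSK-J4 replicate 2 left 6 fork genes called lower, and removing GSK-J4 replicate 3 or DMSO replicate 3 left 7. Of all tested genes, 1.58%, 1.83% and 2.32% were then called lower, in that order.

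Among 34 tested genes that control the entry into DNA synthesis, 8 were lower and 1 higher, that is 23.5% lower against 3.99% of all tested genes, with a median of -0.26, or -0.15 without DMSO replicate 3. At an unadjusted p below 0.05, 16 were lower and 4 higher, against 11% of all tested genes lower. DESeq2 called 10 lower and 1 higher, against 3.78% of all its genes lower. The CPM ranges of the groups were apart for 15 genes as lower, 44.1% against 13.5% of all tested genes. They were apart for 4 as higher, beside 1360 of all 12583 tested genes. E2F1, an activator of replication genes, had 8.20, 8.41 and 7.03 CPM with GSK-J4 and 14.3, 15.8 and 19.0 CPM with DMSO (log2 fold change -1.05, SE 0.18, edgeR adjusted p = 0.00636). CCNA2 (-1.18), the cyclin of DNA synthesis and mitosis, fell too, and MYBL1 (-1.82), a transcription factor, fell in the analysis of all libraries but was not called without GSK-J4 replicate 1, GSK-J4 replicate 2 or DMSO replicate 3, where edgeR adjusted p was 0.0636, 0.0880 and 0.0765. The other genes called lower, named after their values were seen, were E2F7 (-1.63), CCNE2 (-1.51), CDK2 (-0.80), RBL1 (-0.62) and RB1 (-0.56). CDKN1A, which encodes the inhibitor p21 of cyclin-dependent kinases, was the higher gene (log2 fold change 1.63, SE 0.18, edgeR adjusted p = 0.000514). It had 78.6, 60.7 and 50.2 CPM under GSK-J4 and 20.7, 17.4 and 23.1 CPM under DMSO. The other CDKN genes of this list, named after their values were seen, were CDKN2B (-2.32), CDKN2A (-2.21), CDKN2C (-1.23) and CDKN1B (0.24). None was called, with edgeR adjusted p of 0.0857, 0.0997, 0.11 and 0.192 in that order. Their 95% intervals excluded 0, at -3.82 to -0.83, -3.73 to -0.70, -2.10 to -0.36 and 0.03 to 0.44. The E2F partner gene TFDP2 (-0.01, SE 0.14) and LIN52 (0.00, SE 0.18), of a complex that represses cell cycle genes in resting cells, were not called, and their signs changed with the setting. Removing GSK-J4 replicate 1 or 3 left 3 called lower, and removing GSK-J4 replicate 2 or DMSO replicate 3 left 2. Of all tested genes, 3.06%, 1.83%, 1.58% and 2.32% were then called lower, in that order.

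Markers of dividing cells moved with the 10 genes. Of 13 tested proliferation markers, 12 were lower and 0 higher in edgeR, 92.3% against 3.99% of all tested genes. At an unadjusted p below 0.05, 13 were lower and 0 higher, against 11% of all tested genes lower. DESeq2 called 12 lower and 0 higher, against 3.78% of all its genes lower. The summed level of the markers was 172 to 194 CPM with GSK-J4 and 505 to 740 CPM with DMSO, and CCNB3 was at 0 in all libraries. The mitotic kinase gene PLK1 had 8.51, 8.03 and 8.53 CPM with GSK-J4 and 48.5, 41.6 and 61.4 CPM with DMSO. Other examples are BUB1B (-2.37), CDK1 (-2.15) and CCNB2 (-1.47), genes of the spindle checkpoint and of the mitotic kinase and its cyclin. The median log2 fold change of the markers was -1.71, beside -1.10 for the 10 genes. In each library the average centred log2 CPM of the 10 genes was set against that of the markers, and the difference was 0.45, 0.17 and 0.17 in GSK-J4 replicates 1, 2 and 3 and -0.03, -0.45 and -0.31 in DMSO replicates 1, 2 and 3. These values did not overlap between the groups, and the difference was not tested. Both averages are centred over the same 6 libraries, so opposite signs in the groups follow from the larger fall of the markers. They are no separate result. The part of the number of dividing cells in these results was not tested.

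**Figure D4:**
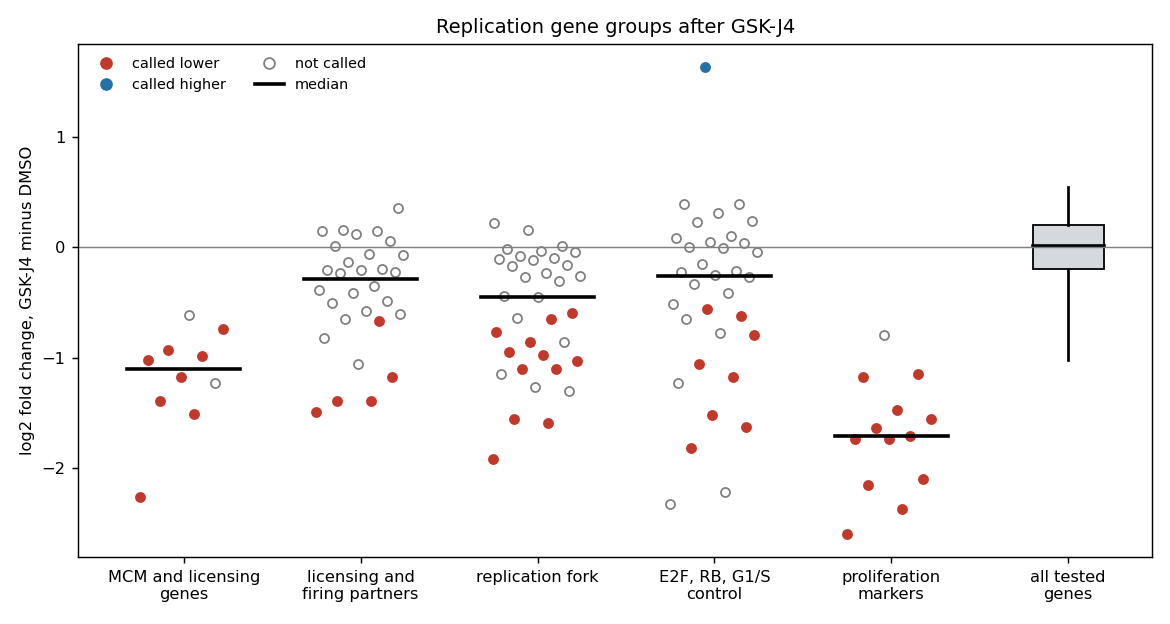
Log2 fold changes (GSK-J4 minus DMSO, y axis) of the tested genes in each group, coloured by call at an edgeR adjusted p of 0.05, with the group median as a black line. The box at right gives the middle 50% of all 12583 tested genes, its line the median of 0.01 and its whiskers the percentiles 5 (-1.02) and 95 (0.54). The medians are -1.10, -0.29, -0.45, -0.26 and -1.71 from left to right.

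In the deposited coordinates, MCM4, ORC1 and CDC45 each start close to another gene that runs the opposite way, within 1000 bases and with no overlap. These neighbours were named by that rule after the values of the 10 genes were seen. The gap between the starts was 728 bases for MCM4 and PRKDC, which encodes a kinase of DNA repair, 155 bases for ORC1 and PRPF38A, a splicing factor gene, and 378 bases for CDC45 and UFD1, a gene of protein breakdown. PRKDC averaged 22.3 ± 2.63 CPM with GSK-J4 and 16.8 ± 2.26 CPM with DMSO (SD, n = 3 each), in the direction opposite to MCM4, and was not called (log2 fold change 0.40, edgeR adjusted p = 0.189). PRPF38A (-0.26, edgeR adjusted p = 0.297) and UFD1 (0.12, adjusted p = 0.685) were not called either. PRKDC was higher and PRPF38A lower in every treated library than in every DMSO library, while the UFD1 groups overlapped. Of all 12583 tested genes, 1360 were apart in this way as higher and 1695 as lower.

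The balance within each pair was compared in log2 CPM. MCM4 stood at 0.11, -0.21 and -0.81 relative to PRKDC with GSK-J4 and at 1.02, 0.72 and 1.56 with DMSO. ORC1 stood at -4.93, -4.93 and -4.84 relative to PRPF38A with GSK-J4 and at -3.09, -3.47 and -2.74 with DMSO. CDC45 stood at -3.21, -3.49 and -3.18 relative to UFD1 with GSK-J4 and at -2.61, -2.47 and -1.75 with DMSO. In all 3 pairs the balance was lower with GSK-J4, by 1.4, 1.80 and 1.02, without overlap between the groups and with an exact two-sided permutation p of 0.10, the smallest that this design allows. MCM4, ORC1 and CDC45 were already known to be lower and no neighbour was called. The balances therefore largely restate the falls of these genes and are no separate support.

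**Figure D5:**
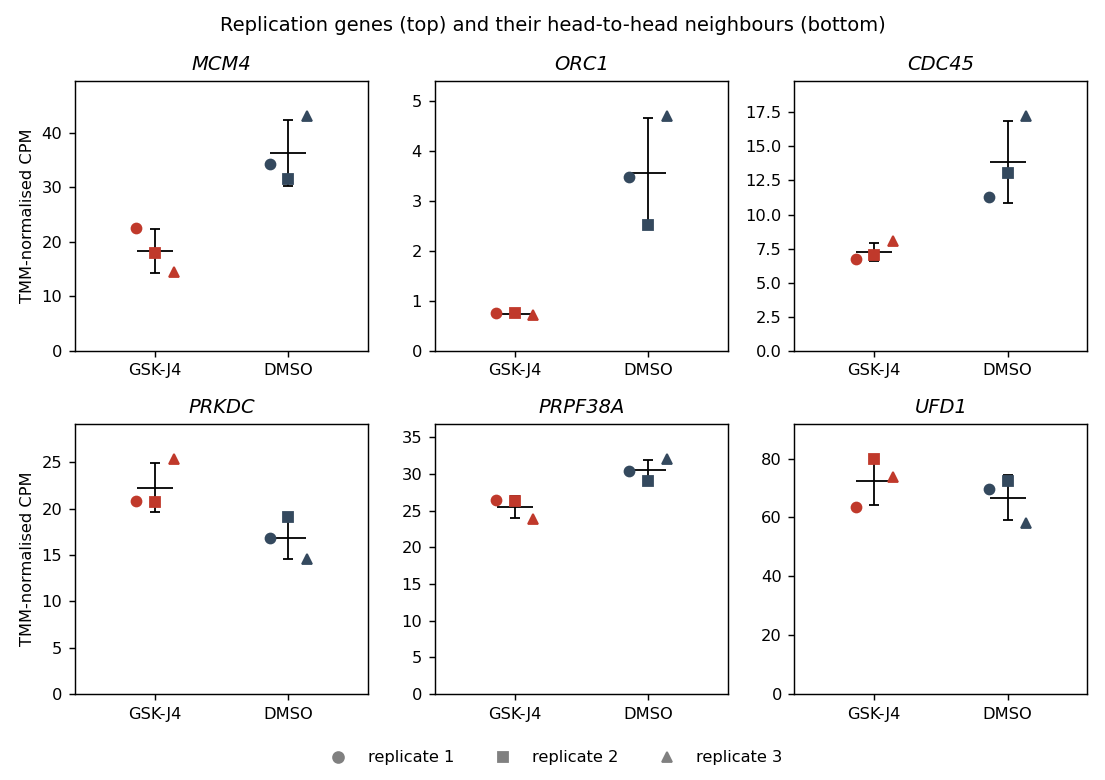
TMM-normalised CPM by library (y axes, linear from 0) for MCM4, ORC1 and CDC45 in the upper row and for the neighbours PRKDC, PRPF38A and UFD1, which start within 1000 bases on the opposite strand, in the lower row. GSK-J4 is left and DMSO right in each panel, with replicates by shape and the mean and SD of 3 libraries. The upper genes are lower with GSK-J4. PRKDC is higher in each treated library (20.7 CPM or more) than in each DMSO library (19.1 CPM or less). PRPF38A is lower in each treated library (26.4 CPM or less) than in each DMSO library (29.0 CPM or more). The UFD1 groups overlap, and no neighbour was called.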

How the data were processed

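Raw counts per gene and FPKM (fragments scaled to gene length and library size) were deposited by the authors for 6 libraries of total RNA, sequenced as paired 150-base reads per the labels' protocols. Per the submitters' processing notes the tools included DESeq2 1.20.0, StringTie 1.3.3b, featureCounts 1.5.0-p3 and HISAT2 2.0.5. Genome build, annotation and strand setting are not stated there. In the deposited files count over gene length gives every FPKM after 1 scaling factor per library, within 0.1%.

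Counts were tested with edgeR 4.0.16 in R 4.3.3 (default expression filter, TMM scaling, robust quasi-likelihood F test, Benjamini-Hochberg adjustment over 12583 genes, threshold 0.05) after a check on simulated data. CPM are TMM-normalised, and SE is the log2 fold change over the root of F. Balances used log2(FPKM + 0.1) and exact two-sided permutation. The file named 13688 genes and a RefSeq table (GRCg7b) 725 more. Named genes are the 10, their MCM and ORC relatives, and CDKN1A, E2F1, GMNN and PCNA. In each of 4 lists the 4 with the smallest p were named and, except among proliferation markers, the 2 with the largest p. The 5 genes most like the 10 were taken from outside all lists. The 10 genes and the lists were chosen with earlier results of these data known. DESeq2 1.42.0 and limma 3.58.1 gave alternatives.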

Additional observations from a re-analysis of the deposited data

How the results depend on the processing

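Across 18 alternatives (scaling, filter, tool, the FPKM scale, a replicate block and each library left out) all 10 genes stayed below 0. Of the single values compared, 806 kept direction and side of the threshold, 48 lost it, 8 gained it and 38 changed sign. The median log2 fold change of all genes moved by under 0.1 with every scaling. CDC6 and ORC1 rest on few counts, which limits their precision.

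Genes called higher numbered 269 with no filter, 303 in DESeq2, 87 on log2(FPKM + 1) and 406 with the replicate block, against 132. Genes called lower numbered 320 on log2(FPKM + 0.1) and 301 on log2(FPKM + 1), against 502. On these scales the partners called lower were 3 and 2, against 5, and the genes of entry into DNA synthesis 2 and 2 (4 in limma-voom), against 8. Leaving out each library gave 203 to 590 genes lower, 42 to 271 higher, and 5 to 8 of the 10 described genes, 0 to 6 partners, 6 to 14 fork genes, 2 to 8 genes of entry into DNA synthesis and 10 to 13 proliferation markers lower. The cause was not tested.

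Deviations of same-numbered libraries correlated at 0.297, 0.170 and 0.043. Libraries with different numbers correlated at -0.273 to -0.01, except GSK-J4 replicate 3 with DMSO replicate 2 (0.106). Each DMSO replicate thus correlated best with the GSK-J4 replicate of its own number, but GSK-J4 replicate 3 correlated best with DMSO replicate 2. Whether the numbers pair the libraries was not tested, and the main test does not pair them. With the replicate block 9 of the 10 were lower, CDC6 being added (edgeR adjusted p = 0.033). Of all tested genes 5.75% were then called lower, against 3.99% without the block.

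Log2 values near 0 changed sign: TIMELESS to -0.029 (upper-quartile factors) and -0.083 (library totals), RFC4 to -0.026 and -0.085, and GMNN to -0.004 (limma-voom) and -0.012 (log2(FPKM + 0.1)). LIN52 took 0.001, 0.013, 0.005, 0.002, 0.016, 0.031, 0.025 and 0.017, POLE3 0.002, 0.004 and 0.003, and TFDP2 0.003, 0.000 and 0.000. ORC1 relative to the ring was 0.202 with pseudocount 1. With a library left out, DBF4 lay between -0.196 and 0.120, TIMELESS -0.106 and 0.219, RFC4 -0.020 and 0.045, POLE3 -0.112 and 0.140, TFDP2 -0.089 and 0.070, LIN52 -0.137 and 0.196, GMNN -0.171 and 0.496, and CDC6 relative to the ring -0.088 and 0.211.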

Other observations

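TIMELESS stood far above the other licensing and firing partners, at 1048 ± 131 CPM with GSK-J4 and 1041 ± 242 CPM with DMSO (SD, n = 3 each), although its protein is known as a companion of the replication fork. In the deposited coordinates it lies 507 bases from MIP, the lens fibre water channel gene, on the same strand, and MIP averaged 1219 CPM with GSK-J4 and 1084 CPM with DMSO. It also overlaps APOF by 556 bases on the same strand, where APOF averaged 23.8 CPM with GSK-J4 and 32.6 CPM with DMSO. Whether reads of neighbouring genes enter the TIMELESS count was not tested, and its level is uncertain.

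The genes closest in pattern to the average of the 10 outside the lists included CTGF, a secreted matrix-associated factor, at 271 ± 30.8 CPM with GSK-J4 and 563 ± 133 CPM with DMSO, and LMO7, at 12.3 ± 0.852 CPM with GSK-J4 and 29.0 ± 4.76 CPM with DMSO (SD, n = 3 each). Neither has a role in replication licensing that is known from textbooks, and the likeness is over 6 libraries with a difference between the groups in all.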
